A study of Mus musculus with 24 samples.

Results

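Pax7, Myf5, Myod1, Myog, Myf6, Cdh15, Chrng, Mstn and Igf1 were followed as 9 genes of 51138 in a count table of implanted constructs. They were chosen by gene symbol, as regulators and marks of muscle stem cells, of forming muscle and of mature muscle, and each symbol matched 1 row of the table. All 9 genes passed the filter on low counts and were tested together with 30564 genes.

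The study asked how priming of mesenchymal stromal cells (MSC), and loss of regulatory T cells (Treg), alter the tissue that forms on a bone substitute under the skin of mice. Constructs of 40 mg of biphasic calcium phosphate (BCP) granules were placed in dorsal subcutaneous pockets, and whole constructs were taken for bulk RNA sequencing at week 2, as 24 samples in 6 groups of 4. All recipients in all groups were Foxp3-DTR/eGFP mice of both sexes, 8 to 9 weeks old, in which Foxp3-expressing cells carry the diphtheria toxin receptor. The BCP group received granules alone, and the BCP+MSC group received granules with 800000 bone marrow MSC from wild-type C57BL/6J mice. In BCP+MSC+RvE1 the MSC had been primed with 10 nM resolvin E1 (RvE1), a lipid mediator that resolves inflammation, and in BCP+MSC+Treg they had been cocultured with Treg. The (dep)BCP+MSC group was implanted in mice given diphtheria toxin at 50 µg per kg to deplete Treg, and the (dep)BCP+MSC+RvE1inj group received the same toxin and local injections of 1 µM RvE1. No group received toxin without carrying the receptor, so toxin and Treg loss cannot be told apart. The toxin-treated mice formed a Treg-depletion experiment, and the study does not say whether it ran alongside the other groups. A difference of experiment therefore cannot be told apart from toxin. The study describes no injections without RvE1 in the other toxin-treated mice, so RvE1 and the injections cannot be told apart either.

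Skeletal muscle is maintained by satellite cells, stem cells that lie on the muscle fibre and are marked by Pax7. When they are activated, Myf5 and Myod1 commit them to the muscle lineage, Myog drives their differentiation and fusion, and Myf6 takes over as the main factor of this family in mature fibres. Young fibres carry embryonic and neonatal myosins and the fetal gamma subunit of the acetylcholine receptor, which adult fibres replace with adult myosins and the epsilon subunit. Mouse skin carries a thin striated muscle sheet, the panniculus carnosus, beside the subcutaneous space.

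Library totals ranged from 8482701 to 144417743 counts. Skeletal muscle genes had counts in all 24 libraries, at very different levels. The mean log2 CPM (read counts scaled to a library of 1000000 counts, with a prior count of 2) of 28 mature muscle genes ran from 3.12 to 9.76 in the 16 libraries of mice without toxin, and from 7.26 to 9.34 in the 8 libraries of toxin-treated mice, with medians of 8.89 and 8.99. A few libraries stood apart before any comparison. BCP+MSC replicate 2 had the lowest level (3.12, where the other libraries began at 6.62), and BCP replicate 4, BCP+MSC+Treg replicate 4 and BCP replicate 1 were the next lowest. Replicate 1 of (dep)BCP+MSC was the shallowest library and had the highest level of 5 keratinocyte genes (mean log2 CPM of 5.35, against a median of -0.66 over the 24 libraries). In bulk tissue, fewer cells of a type and less RNA per cell cannot be told apart, and this holds for every value given here.

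Pax7 (ENSMUSG00000028736.13, chr4:139737062-139833528, minus strand), the transcription factor of satellite cells, was low throughout. Its CPM was 0.119, 0.862, 0.815 and 0.322 in BCP, and 0.708, 0.0295, 0.482 and 0.610 in BCP+MSC. It was 1.17, 0.0613, 0.548 and 0.363 in BCP+MSC+RvE1, and 0.614, 0.528, 0.561 and 0 in BCP+MSC+Treg, where the 0 is a library in which 3 counts would be 0.251 CPM. In the toxin groups it was 0.299, 0.422, 0.423 and 0.524 in (dep)BCP+MSC and 0.047, 0.326, 0.285 and 0.233 in (dep)BCP+MSC+RvE1inj. All 6 groups overlapped. The library without a Pax7 count was BCP+MSC+Treg replicate 4, and the 2 libraries next below were BCP+MSC replicate 2 and (dep)BCP+MSC+RvE1inj replicate 1.

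Myf5 (ENSMUSG00000000435.1, chr10:107482908-107486134, minus strand) and Myod1 (ENSMUSG00000009471.4, chr7:46376474-46379099, plus strand) are the determination factors. Myf5 measured 0 to 0.367 CPM in BCP, 0.0443 to 0.387 in BCP+MSC, 0.184 to 0.557 in BCP+MSC+RvE1 and 0.0836 to 0.561 in BCP+MSC+Treg. In (dep)BCP+MSC it was 0.498, 0.657, 0.365 and 0.713 CPM, and in (dep)BCP+MSC+RvE1inj 0.129, 0.803, 0.570 and 0.524 CPM. The single Myf5 zero was BCP replicate 4, where 3 counts would be 0.193 CPM. Myod1 was more abundant, with 0.451 to 5.17 CPM in BCP, 0.0591 to 2.62 in BCP+MSC, 1.69 to 3.85 in BCP+MSC+RvE1 and 0.836 to 6.19 in BCP+MSC+Treg. It was 0.597, 2.06, 1.13 and 2.31 CPM in (dep)BCP+MSC and 0.564, 3.51, 2.21 and 2.85 CPM in (dep)BCP+MSC+RvE1inj. The highest Myod1 values belonged to BCP+MSC+Treg and BCP, not to the toxin groups, and all groups overlapped.

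Myog (ENSMUSG00000026459.5, chr1:134289989-134292548, plus strand), the factor of muscle differentiation, had its highest values in the toxin groups. It was 4.28, 2.75, 5.03 and 0.258 CPM in BCP, and 2.51, 0.266, 2.01 and 0.863 CPM in BCP+MSC. It was 7.94, 0.858, 3.15 and 1.20 CPM in BCP+MSC+RvE1, and 5.40, 3.58, 4.96 and 0.753 CPM in BCP+MSC+Treg. In (dep)BCP+MSC the 4 libraries held 23.5, 6.87, 2.98 and 14.2 CPM, and in (dep)BCP+MSC+RvE1inj they held 2.91, 15.9, 15.5 and 10.8 CPM. Every toxin-treated library was above every BCP+MSC library, while 1 library of each toxin group lay within the range of BCP and of BCP+MSC+Treg.

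Myf6 (ENSMUSG00000035923.4, chr10:107492853-107494737, minus strand), the factor that prevails in mature fibres, was the most abundant of the 4 myogenic factors in both sets of libraries on a per-length scale. It ranged from 1.09 to 11.2 CPM in BCP, from 0.192 to 11.4 in BCP+MSC, from 11.2 to 17.6 in BCP+MSC+RvE1 and from 2.09 to 16.0 in BCP+MSC+Treg. It was 13.3, 9.81, 25.8 and 31.9 CPM in (dep)BCP+MSC and 5.34, 24.9, 23.4 and 12.3 CPM in (dep)BCP+MSC+RvE1inj. The lowest value belonged to BCP+MSC replicate 2, the library lowest in muscle genes, and the 4 values above 20 CPM all belonged to the toxin groups.

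Cdh15 (ENSMUSG00000031962.6, chr8:122847966-122867397, plus strand) encodes M-cadherin, the adhesion molecule between satellite cells, myoblasts and fibres. It was 1.13, 2.42, 1.53 and 0.837 CPM in BCP, and 3.38, 0.118, 3.18 and 3.36 CPM in BCP+MSC. It was 5.58, 2.27, 4.84 and 2.55 CPM in BCP+MSC+RvE1, and 3.03, 3.48, 4.29 and 0.167 CPM in BCP+MSC+Treg. The (dep)BCP+MSC libraries held 11.7, 6.40, 14.4 and 14.6 CPM and the (dep)BCP+MSC+RvE1inj libraries 1.89, 14.9, 20.9 and 4.31 CPM. All 4 libraries of (dep)BCP+MSC were above all 16 libraries without toxin, and 2 of the 4 of (dep)BCP+MSC+RvE1inj were not.

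Chrng (ENSMUSG00000026253.14, chr1:87204657-87212694, plus strand) encodes the fetal gamma subunit of the muscle acetylcholine receptor, which returns in regenerating and in denervated fibres. It was 0.416, 0.238, 0.846 and 0.129 CPM in BCP, and 0.463, 0.148, 0.349 and 0.0595 CPM in BCP+MSC. It was 1.83, 0, 0.585 and 0.0983 CPM in BCP+MSC+RvE1, and 0.254, 0.643, 0.603 and 0 CPM in BCP+MSC+Treg. The toxin groups reached 3.09, 0.117, 0.517 and 3.27 CPM in (dep)BCP+MSC and 0.505, 2.73, 1.85 and 1.05 CPM in (dep)BCP+MSC+RvE1inj. The 4 highest values were all from toxin-treated mice, but the 2 remaining libraries of (dep)BCP+MSC sat within the range of BCP+MSC+RvE1, and the zeros are libraries where 3 counts would be 0.184 and 0.251 CPM.

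The 250 bases before the start of Myog and of Chrng are shown as examples, because both genes had their highest values in the toxin groups and both are textbook targets of the myogenic factors, which bind E-boxes with the letters CANNTG. Windows were found for 7 of the 9 genes in the RefSeq promoter table (GRCm38.p6). Capitals mark each CANNTG, a pattern that reads the same on both strands, and the sequences run 5′ to 3′ on the plus strand.
Myog, chr1:134289754-134290003: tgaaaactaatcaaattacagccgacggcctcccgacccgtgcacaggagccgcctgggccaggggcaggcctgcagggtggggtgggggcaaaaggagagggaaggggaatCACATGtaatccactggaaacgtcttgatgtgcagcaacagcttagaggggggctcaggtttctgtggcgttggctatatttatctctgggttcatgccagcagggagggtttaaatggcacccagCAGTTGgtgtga
Chrng, chr1:87205561-87205810: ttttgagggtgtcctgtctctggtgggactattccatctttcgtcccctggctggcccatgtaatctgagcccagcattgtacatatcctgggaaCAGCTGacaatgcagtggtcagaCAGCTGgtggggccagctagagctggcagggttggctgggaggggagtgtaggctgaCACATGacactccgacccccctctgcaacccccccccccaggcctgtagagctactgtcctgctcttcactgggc
Myog held 2 matches, at 138 to 133 and at 12 to 7 bases before the RefSeq start. Chrng held 3, of which 2 had the letters CAGCTG, at 155 to 150 and at 132 to 127 bases before the start. The second Myog match lies inside the Myog span of the count table. Of the windows not shown, that of Mstn, which did not pass a threshold, held 4 matches, Cdh15 3, Igf1 1, and Pax7 and Myf5 0. Of 32851 windows in the table, 31.8% held at least 2 CANNTG matches, 12.2% held at least 3, and 1.26% held at least 2 of CAGCTG, which is itself one of the CANNTG forms. These are matches of letters only. The Chrng window lies upstream of the RefSeq start and inside the gene span of the count table, whose first exon begins farther upstream.

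Mstn (ENSMUSG00000026100.6, chr1:53061640-53068079, plus strand) encodes myostatin, the secreted inhibitor of muscle growth that adult fibres produce. It was 0.833, 19.6, 2.54 and 1.22 CPM in BCP, and 1.14, 0.162, 0.914 and 8.12 CPM in BCP+MSC. It was 17.7, 1.90, 11.0 and 11.1 CPM in BCP+MSC+RvE1, and 12.6, 5.38, 19.2 and 1.42 CPM in BCP+MSC+Treg. The (dep)BCP+MSC libraries lay close together at 8.46, 7.79, 10.8 and 10.8 CPM, and those of (dep)BCP+MSC+RvE1inj at 3.68, 14.4, 5.77 and 6.12 CPM. The BCP libraries alone ran from 0.833 to 19.6 CPM, and each toxin group overlapped each of the other groups.

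Igf1 (ENSMUSG00000020053.18, chr10:87858265-87937042, plus strand) encodes insulin-like growth factor 1, which promotes satellite cell proliferation and fibre growth and is also made in quantity by macrophages and other stromal cells. It was 342, 445, 443 and 349 CPM in BCP, and 471, 354, 546 and 471 CPM in BCP+MSC. It was 331, 835, 393 and 485 CPM in BCP+MSC+RvE1, and 312, 544, 393 and 353 CPM in BCP+MSC+Treg. In toxin-treated mice it was 90.3, 172, 287 and 248 CPM in (dep)BCP+MSC and 279, 299, 279 and 233 CPM in (dep)BCP+MSC+RvE1inj. All 8 toxin-treated libraries were below all 16 others. An antisense gene, Igf1os, overlaps Igf1 and received 6936 counts over all libraries beside the 507339 of Igf1, and without strand in the counting, reads of the overlap cannot be told apart.

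**Figure D1:**
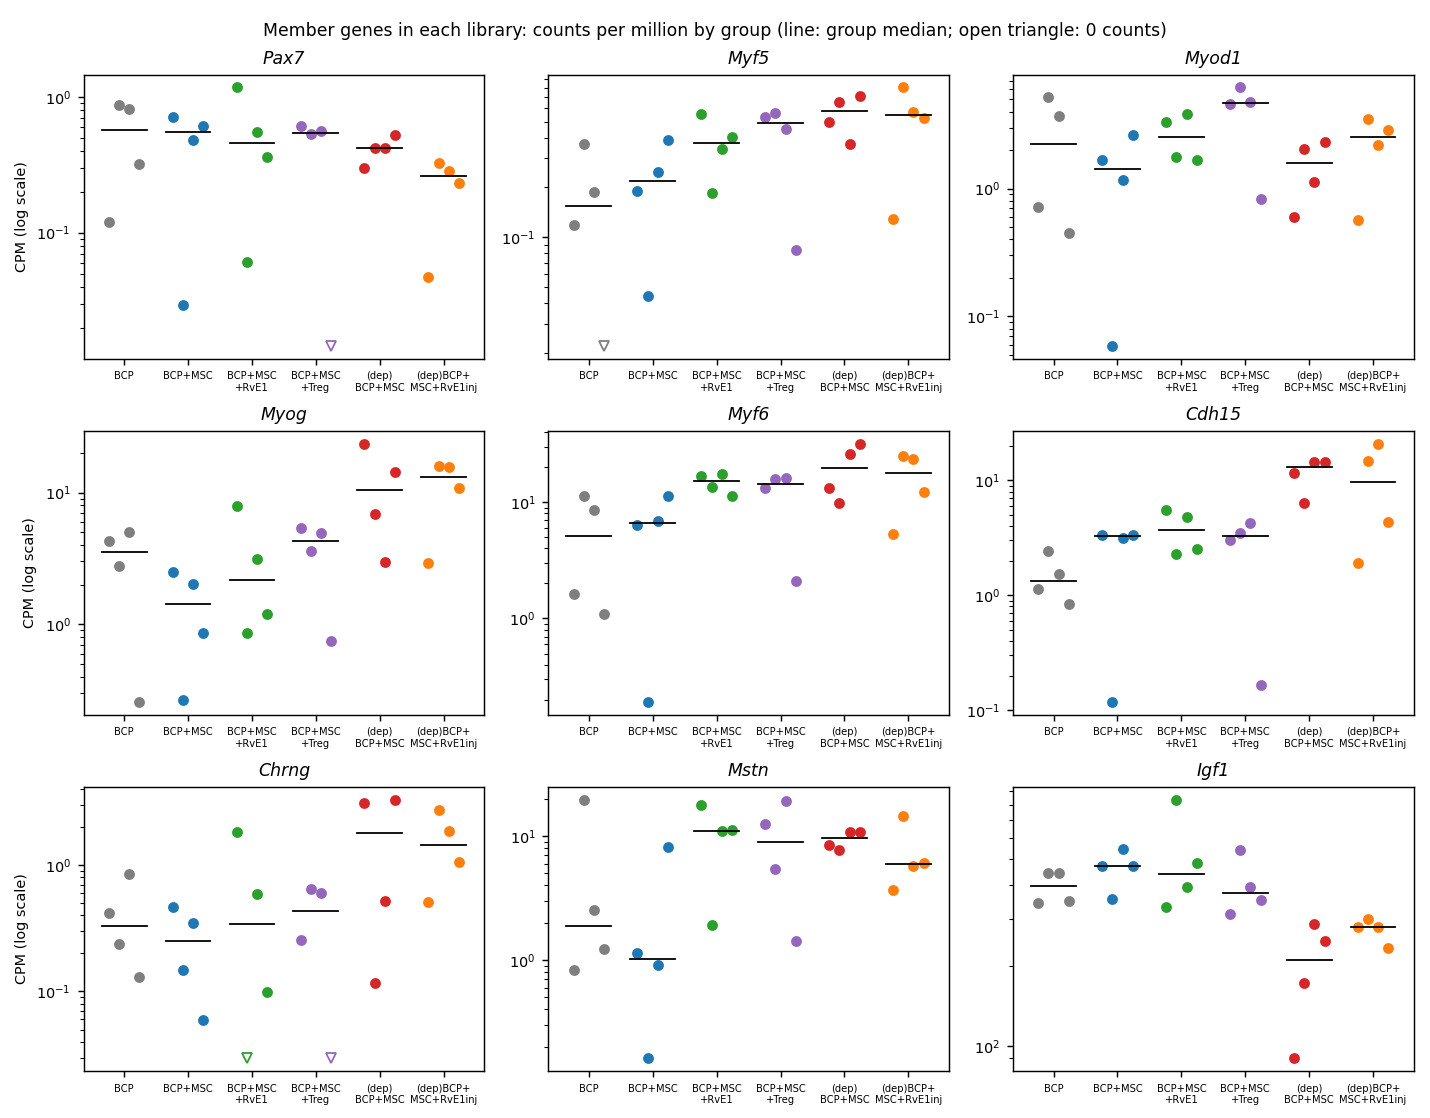
CPM of the 9 genes in each library (log axis), by group, with a line at the group median and open triangles for libraries with 0 counts. Myog, Cdh15 and Chrng reached their highest values in the 2 toxin groups, Pax7 and Myod1 did not, and the 8 toxin-treated libraries lay lowest for Igf1, at 90.3 to 299 CPM against 312 to 835.

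Per kilobase of exon, the order of the 9 genes in the 16 libraries without toxin ran, by median CPM per kb, from Igf1 (42.2) through Myf6 (8.88), Myog (1.76), Mstn (1.46), Myod1 (1.18), Cdh15 (0.858), Myf5 (0.141) and Pax7 (0.0918) to Chrng (0.0724). Neighbours in the middle of this order were not separated, since Myog exceeded Mstn in 6 of 16 libraries and Mstn exceeded Myod1 in 10 of 16. In the 8 toxin-treated libraries the medians were 26.6 for Igf1, 14.5 for Myf6, 8.36 for Myog, 4.02 for Cdh15, 3.00 for Mstn, 1.15 for Myod1, 0.348 for Chrng, 0.263 for Myf5 and 0.0533 for Pax7. Cdh15 and Mstn exceeded each other in 4 of 8 libraries each. Across the 6 groups, the means of neighbouring groups in the order of each gene differed by more than their SDs in 1 of 45 cases, which was Igf1 in BCP above (dep)BCP+MSC+RvE1inj.

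The first set of comparisons asked whether MSC or their priming altered these genes in mice without toxin. No gene of the 9 passed a threshold in any of the 6 comparisons among BCP, BCP+MSC, BCP+MSC+RvE1 and BCP+MSC+Treg. With edgeR's quasi-likelihood test, 0 of 9 passed at an adjusted p under 0.05 and a log2 fold change beyond 1, where 0% of all genes tested passed in each of the 6. At an unadjusted p under 0.05 and the same fold, 0 of 9 passed in each, where 4.32% of genes passed for BCP+MSC against BCP, 8.54% for BCP+MSC+RvE1 against BCP, 5.85% for BCP+MSC+Treg against BCP, 2.50% for BCP+MSC+RvE1 against BCP+MSC, 2.56% for BCP+MSC+Treg against BCP+MSC and 2.22% for BCP+MSC+Treg against BCP+MSC+RvE1. DESeq2 placed 1 of the 9 past the unadjusted threshold for BCP+MSC+RvE1 against BCP+MSC, where it placed 1.53% of all genes, and 2 for BCP+MSC+Treg against BCP+MSC, where it placed 1.12%.

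The estimates in these 6 comparisons were wide. For BCP+MSC+RvE1 against BCP, Myf6 and Cdh15 had the highest log2 fold change, both at 1.34 (SE 0.84 and 0.80, edgeR adjusted p = 0.412 and 0.391), and Pax7 the lowest, at -0.01 (SE 0.80, edgeR adjusted p = 1.00). For BCP+MSC against BCP the values ran from -1.24 for Mstn (SE 1.03) to 0.73 for Cdh15 (SE 0.79), and for BCP+MSC+Treg against BCP from -0.31 for Pax7 (SE 0.81) to 1.16 for Myf5 (SE 0.71). Mstn was highest for BCP+MSC+RvE1 against BCP+MSC, at 2.01 (SE 1.05), and for BCP+MSC+Treg against BCP+MSC, at 1.89 (SE 1.04), and without BCP+MSC replicate 4 these became 3.83 and 3.71. Igf1 was lowest in both, at 0.13 (SE 0.29) and -0.23 (SE 0.29). Between the 2 primed groups, BCP+MSC+Treg minus BCP+MSC+RvE1, the values ran from -0.71 for Chrng (SE 1.02) to 0.62 for Myod1 (SE 0.79). Differences of the size of these SEs were not detectable with 4 libraries a group.

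Toxin-treated constructs with MSC were then compared with the same constructs in mice without toxin. For (dep)BCP+MSC against BCP+MSC, Igf1 fell by 1.20 on the log2 scale (SE 0.29, edgeR adjusted p = 0.0205), and it was the only gene of the 9 past the adjusted threshold, where 3.14% of all genes were called. It was lower in 4 of 4 libraries than in any BCP+MSC library, with means of 199 ± 87.2 and 460 ± 79.3 CPM (SD, n = 4 each). The call was lost on leaving out replicate 1 of (dep)BCP+MSC (edgeR adjusted p = 0.0782), replicate 2 of (dep)BCP+MSC (0.0817) or replicate 3 of BCP+MSC (0.0615), and on leaving out BCP+MSC replicate 2, (dep)BCP+MSC replicate 1 and BCP replicate 1 together (0.0829). It was also lost in a fit of only these 2 groups (log2 fold change -1.20, edgeR adjusted p = 0.124).

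Myog, Cdh15 and Chrng had the largest positive estimates of the 9 in that comparison and passed the unadjusted threshold only. Myog had a log2 fold change of 3.08 (SE 0.91, edgeR adjusted p = 0.0603), Chrng 2.76 (SE 1.08, adjusted p = 0.151) and Cdh15 2.24 (SE 0.81, adjusted p = 0.123). With Igf1 this made 4 of 9 genes past the unadjusted threshold, where 13.2% of all genes were. The groups did not overlap in CPM for Myog, Cdh15 and Igf1, 3 of 9 genes, where 9.16% of all genes did not overlap, and for these an exact two-sided permutation test gave p = 0.0286, the lowest that 4 against 4 samples allow. DESeq2 called Myog (adjusted p = 0.00171), Cdh15 (0.0227) and Chrng (0.0372) as well as Igf1, 4 of 9 genes, where it called 8.10% of the genes it gave an adjusted p.

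The remaining genes of the 9 did not pass in this comparison. Mstn had a log2 fold change of 1.88 (SE 1.04, edgeR adjusted p = 0.324, or 3.70 without BCP+MSC replicate 4), Myf6 1.71 (SE 0.85, adjusted p = 0.262) and Myf5 1.36 (SE 0.70, adjusted p = 0.274). Myod1 was at 0.18 (SE 0.80) and Pax7 at -0.08 (SE 0.82), where the median of all genes was -0.04. The median of the 9 genes was 1.71. In the same comparison the mature muscle genes had a median of 1.05 with 0 of 28 past the adjusted threshold, the keratinocyte markers 3.86 with 3 of 5 higher, and the fibroblast markers -1.48 with 2 of 6 lower. The part of these in the values of the 9 genes was not tested.

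The injected group was set against the same BCP+MSC libraries. For (dep)BCP+MSC+RvE1inj against BCP+MSC, a comparison added after the data were seen, Myog had a log2 fold change of 3.02 (SE 0.90, edgeR adjusted p = 0.132), Chrng 2.62 (SE 1.08, adjusted p = 0.279) and Cdh15 2.09 (SE 0.81, adjusted p = 0.250). None of the 9 passed the adjusted threshold, where 0.661% of genes did, and these 3 passed the unadjusted one, where 9.45% did. Igf1 had a log2 fold change of -0.75 (SE 0.29, edgeR adjusted p = 0.251), short of the fold threshold. Myog, Chrng and Igf1 did not overlap between the 2 groups, where 7.10% of all genes did not, each with an exact permutation p of 0.0286.

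Local injection of RvE1 within toxin-treated mice moved none of the 9 genes past a threshold. For (dep)BCP+MSC+RvE1inj against (dep)BCP+MSC the log2 fold changes ran from -0.97 for Pax7 (SE 0.87, edgeR adjusted p = 0.755) to 0.55 for Myod1 (SE 0.80, adjusted p = 0.862), with Myog at -0.06 (SE 0.84), Cdh15 at -0.15 (SE 0.77), Chrng at -0.14 (SE 1.01) and Igf1 at 0.46 (SE 0.29). Leaving out 1 library turned the sign of Myf5, Myf6, Myog, Cdh15 and Chrng, so no direction is given for these. The background was 0% of genes at the adjusted threshold and 5.13% at the unadjusted one. The smallest exact permutation p was 0.0571, for Pax7.

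The 8 toxin-treated libraries were also set against the 16 others, a comparison chosen after the data were seen, which shares its samples with those above. The 8 all held unprimed MSC, while the 16 also held BCP alone and primed MSC, so the sets differ in construct as well as toxin. Exact tests of 8 against 16 libraries shuffle them without regard to these groups. Myog rose by a log2 fold change of 2.10 (SE 0.49, edgeR adjusted p = 0.00583), Cdh15 by 2.16 (SE 0.46, adjusted p = 0.00259) and Chrng by 1.99 (SE 0.60, adjusted p = 0.0252). Mean CPM went from 2.86 ± 2.22 to 11.6 ± 7.11 for Myog, from 2.63 ± 1.59 to 11.1 ± 6.40 for Cdh15 and from 0.417 ± 0.455 to 1.64 ± 1.27 for Chrng (SD, n = 16 and 8). These 3 genes of 9 were the ones past the adjusted threshold, where 8.98% of all genes passed it, 5.59% in the upward direction. The Myog and Cdh15 calls held in all 24 fits that left out 1 library, and the Chrng call in 21, being lost without (dep)BCP+MSC replicate 1 (edgeR adjusted p = 0.0641), without one of the unnumbered (dep)BCP+MSC libraries (0.0730) or without (dep)BCP+MSC+RvE1inj replicate 2 (0.0656), and without the 3 libraries named above (0.101).

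Igf1 fell by 0.89 on the log2 scale in the toxin-treated libraries (SE 0.19, edgeR adjusted p = 0.00176), less than the fold threshold, and 7.17% of all genes were lower at an adjusted p under 0.05 at any fold. It was the 1 gene of 9 without overlap between the 8 and the 16 libraries, where 1.02% of all genes had none, with an exact permutation p of 1.36e-06, the smallest these groups allow. The mean was 236 ± 71.6 CPM with toxin and 442 ± 129 CPM without (SD, n = 8 and 16), and the call held in all 24 fits that left out 1 library.

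The other genes did not pass the adjusted threshold in this comparison. Myf6 had a log2 fold change of 1.06 (SE 0.49, edgeR adjusted p = 0.154) and was the fourth gene, with the 3 above, past the unadjusted threshold, where 15.4% of all genes passed. Myf5 was at 0.91 (SE 0.41, edgeR adjusted p = 0.141), Mstn at 0.43 (SE 0.61, adjusted p = 0.711), Myod1 at -0.39 (SE 0.49, adjusted p = 0.664) and Pax7 at -0.71 (SE 0.53, adjusted p = 0.406). Pax7 and Myod1 had estimates below 0 beside the rise of Myog and Cdh15. Against BCP+MSC alone, Myod1 was above 0, at 0.18 for (dep)BCP+MSC and 0.74 for (dep)BCP+MSC+RvE1inj (SE 0.80 for each). Pax7 was at -0.08 and -1.06 there (SE 0.82 and 0.86).

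**Figure D2:**
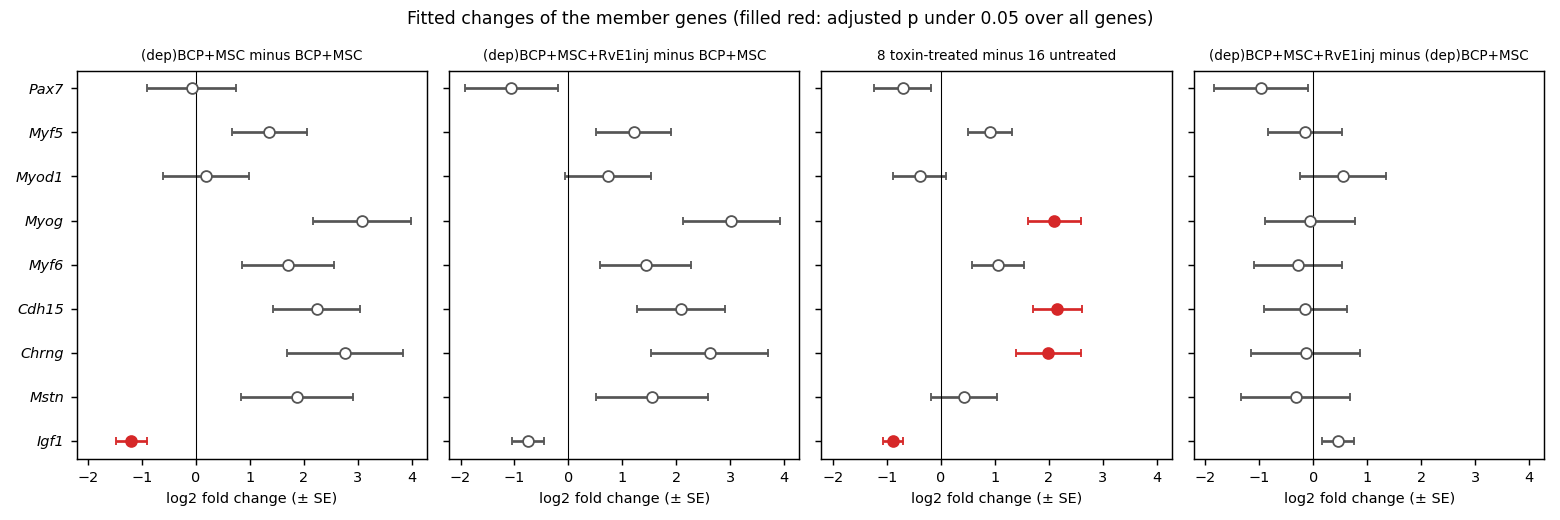
Log2 fold changes of the 9 genes with their SE in 4 comparisons, with filled red points for an edgeR adjusted p under 0.05 over all genes. Myog, Cdh15 and Chrng lay between 1.99 and 3.08 in the 3 comparisons of toxin-treated with untreated mice and between -0.15 and -0.06 between the 2 toxin groups.

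In mice without toxin, the level of most of these genes followed that of the mature muscle genes. Over the 16 libraries without toxin, the log2 CPM of Myf6 correlated with the mean log2 CPM of the mature muscle genes at r = 0.98 (permutation p = 1e-05, the smallest that 100000 permutations can give, Spearman's rho = 0.88 with p = 1e-05), and at r = 0.95 without the 2 libraries farthest from the median. Cdh15 gave r = 0.92 (permutation p = 1e-05, rho = 0.94 with p = 1e-05, r = 0.89 without those 2) and Myod1 r = 0.93 (permutation p = 1e-05, rho = 0.72 with p = 0.0023, r = 0.78 without those 2). Myog gave r = 0.66 (permutation p = 0.0041, rho = 0.59 with p = 0.018), which fell to 0.30 without those 2, so that its relation rested on them. Igf1 did not follow the muscle level, with r = 0.30 (permutation p = 0.24, rho = 0.07 with p = 0.79). These are 5 of 18 relations computed, with unadjusted p, and 3 of the 4 libraries lowest in muscle genes were also shallow, with 10567666 to 14648410 counts. Within the 8 toxin-treated libraries Cdh15 gave r = 0.92 (exact permutation p = 0.0043, rho = 0.69 with p = 0.069), and r = 0.38 without the 2 farthest. Myf6 gave r = 0.74 there (exact permutation p = 0.033, rho = 0.62 with p = 0.11) and 0.19 without those 2, and Myod1 r = 0.26 (exact permutation p = 0.58, rho = 0.24 with p = 0.58), and the Cdh15 and Myf6 relations there rested on those 2 libraries. Myog gave r = 0.59 there (exact permutation p = 0.088, rho = 0.88 with p = 0.0072) and 0.86 without those 2. Chrng gave r = 0.42 (exact permutation p = 0.31, rho = 0.81 with p = 0.022) and 0.90 without those 2. Adjusted over the genes in these 8 libraries, the rho p of Myog and Chrng were 0.065 and 0.098. Without those 2, Pax7, Myf5 and Mstn fell from r = 0.82, 0.75 and 0.77 to -0.43, 0.30 and 0.23.

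**Figure D3:**
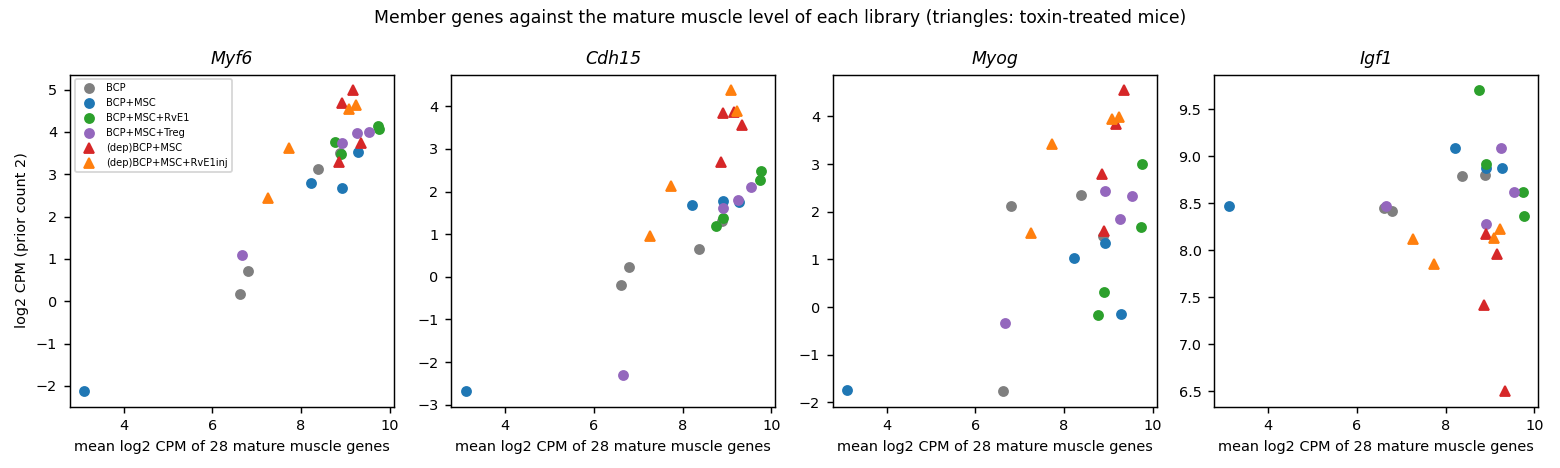
Log2 CPM of Myf6, Cdh15, Myog and Igf1 in each library against the mean log2 CPM of 28 mature muscle genes, with circles for mice without toxin and triangles for toxin-treated mice. Myf6 and Cdh15 rise along the muscle axis in the circles (r = 0.98 and 0.92), Igf1 does not (r = 0.30), and all 8 triangles lie below all 16 circles for Igf1.

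Each gene was therefore also measured relative to the mature muscle genes of its own library, as a difference of log2 CPM. Unless another comparison is named, the values given are for the 8 toxin-treated against the 16 other libraries, from 90 such exact tests with unadjusted p. Cdh15 stood 1.76 higher relative to muscle with toxin, at -5.53 ± 0.55 against -7.29 ± 0.67 (SD, n = 8 and 16, exact permutation p = 6.80e-06), and 6 of the 8 were above all 16. Myog stood 1.77 higher, at -5.48 ± 0.92 against -7.25 ± 1.32 (exact permutation p = 0.00321), and Myf6 0.87 higher, at -4.70 ± 0.60 against -5.57 ± 0.40 (exact permutation p = 0.000303). Adjusted over the 90 exact tests, these p were 0.000612 for Cdh15, 0.0136 for Myf6 and 0.0963 for Myog. With Ttn, the giant sarcomere protein gene, alone as the reference, the Myf6 difference was 0.42 (exact permutation p = 0.228). Those of Cdh15 and Myog were then both 1.31 (exact permutation p = 0.000669 and 0.0280). Chrng was 1.54 higher (exact permutation p = 0.0563), and the differences of Pax7 and Myod1 were -0.70 and -0.64 (exact permutation p = 0.134 and 0.0788). With Ttn as the reference they were -1.16 and -1.10 (exact permutation p = 0.0173 and 0.0103), and that of Chrng was 1.09 (exact permutation p = 0.182). In a fit with the muscle level as a covariate, the log2 fold changes of 8 against 16 libraries were 1.89 for Myog (edgeR adjusted p = 0.00315), 1.88 for Cdh15 (adjusted p = 5.26e-06) and 1.78 for Chrng (adjusted p = 0.0419), and that of Myog between (dep)BCP+MSC and BCP+MSC was 2.24 (adjusted p = 0.121).

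Pairs of genes that exchange as fibres mature were compared within libraries, as 50 exact tests with unadjusted p over 10 comparisons. Chrng minus Chrne, the fetal minus the adult receptor subunit, was -0.16 ± 1.29 with toxin and -1.51 ± 1.67 without on the log2 scale (SD, n = 8 and 16, exact permutation p = 0.0579). Myog minus Myf6 was -0.78 ± 1.10 with toxin and -1.68 ± 1.36 without (exact permutation p = 0.121), and embryonic myosin Myh3 minus the mean of the adult myosins Myh1, Myh2 and Myh4 was -6.37 ± 1.31 and -7.50 ± 1.73 (exact permutation p = 0.117). None of these 3 differences had a p under 0.05 by that test.

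Myod1 minus Myf6 was also compared between the groups without toxin. It was -1.17 ± 0.05 in BCP, -1.47 ± 0.21 in BCP+MSC+Treg, -1.95 ± 0.53 in BCP+MSC and -2.52 ± 0.34 in BCP+MSC+RvE1, and -2.87 ± 0.56 in (dep)BCP+MSC+RvE1inj and -3.72 ± 1.04 in (dep)BCP+MSC (SD, n = 4 each). The 4 BCP libraries lay above all 12 libraries of the other 3 groups without toxin, with an exact permutation p of 0.0286 for each of the 3, and BCP+MSC+Treg lay above BCP+MSC+RvE1 by 1.05 (exact permutation p = 0.0286). Adjusted over the 50 exact tests, the p was 0.179 for each of these, so no difference without toxin is taken as established. The difference of toxin-treated from other libraries was -1.51 (exact permutation p = 0.000117, adjusted 0.00292), with 5 of the 8 below all 16. For (dep)BCP+MSC against BCP+MSC it was -1.77 (exact permutation p = 0.0571). Some of these libraries hold few counts of Myod1, with 4 in BCP+MSC replicate 2 and 6 in (dep)BCP+MSC replicate 1.

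**Figure D4:**
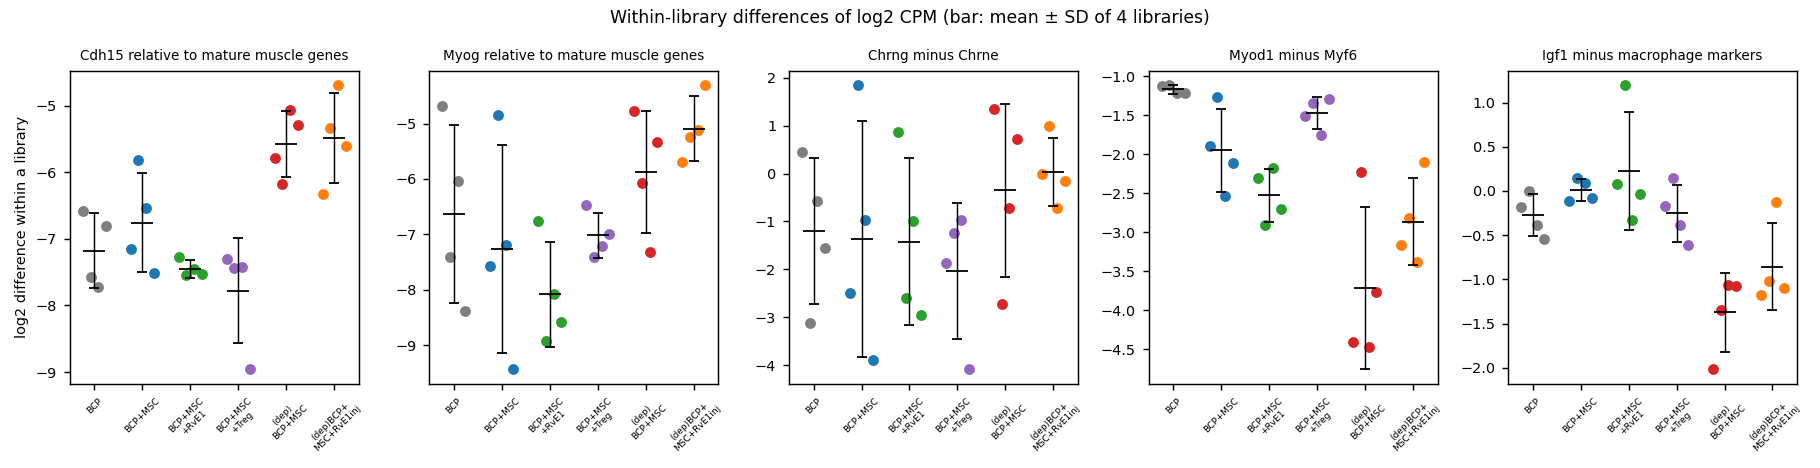
Differences of log2 CPM within each library, by group, with the mean and SD of 4 libraries. Cdh15 relative to the mature muscle genes is highest in the 2 toxin groups, Myod1 minus Myf6 runs from -1.17 in BCP to -3.72 in (dep)BCP+MSC, and Igf1 minus the macrophage markers is lowest in the 2 toxin groups.

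Igf1 was set against 10 macrophage markers, since macrophages are a source of it. Igf1 minus the mean of these markers was -0.11, 0.15, 0.09 and -0.08 in BCP+MSC, -2.02, -1.35, -1.06 and -1.07 in (dep)BCP+MSC, and -1.18, -1.02, -0.13 and -1.10 in (dep)BCP+MSC+RvE1inj. The toxin libraries were all below the BCP+MSC libraries, though one only narrowly, with differences of -1.39 and -0.87 (exact permutation p = 0.0286 for each), and over 8 against 16 libraries the difference was -1.04 (exact permutation p = 1.09e-05). Adjusted over the 50 exact tests, these p were 0.179 for each toxin group against BCP+MSC and 0.000544 for 8 against 16 libraries. The summed level of the macrophage markers ranged from 5055 to 10055 CPM with toxin and from 6843 to 11803 CPM without, and past the adjusted threshold Cd163 and Mertk rose and Lyz2 fell, of which the first 2 were named after their values were seen. The summed level of 6 fibroblast markers ranged from 2793 to 11689 CPM with toxin and from 7780 to 34505 without, and 4 of the 6 fell past the adjusted threshold. Of all genes, 8.98% passed that threshold, in either direction, over 8 against 16 libraries. The part of fibroblast content in the Igf1 result was not tested.

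Genes of young fibres were followed as a list of 8. In the toxin-treated libraries 6 of the 8 were higher and 1 lower past the adjusted threshold, with a median log2 fold change of 2.05 where the median of all genes was -0.01. Of all genes, 8.98% passed this threshold. The 6 higher ones were Myh3 (2.07, SE 0.53, edgeR adjusted p = 0.0103) and neonatal myosin Myh8 (2.40, SE 0.65, adjusted p = 0.0158), the embryonic light chain Myl4 (1.63, SE 0.49), and, named after their values were seen, Tnnt2, Mymk and Mymx, of which the last pair encode the fusion proteins myomaker and myomixer. Ncam1, an adhesion molecule also found on nerve and Schwann cells, fell by 1.00, at the edge of the threshold and short of it without, for example, (dep)BCP+MSC replicate 1, and Actc1, cardiac actin, was at -0.50 (SE 0.56, edgeR adjusted p = 0.615). Myh3 was 28.6, 2.58, 2.89 and 14.6 CPM in (dep)BCP+MSC and 3.10, 16.8, 9.33 and 8.45 CPM in (dep)BCP+MSC+RvE1inj, against 0.613 to 9.49 CPM in the other libraries. The 3 libraries highest in Myh3 were the 3 highest in Chrng. Without BCP+MSC replicate 2, (dep)BCP+MSC replicate 1 and BCP replicate 1, only 1 of the 8 stayed past the adjusted threshold on the upper side, and in fits leaving out 1 library 4 to 6 did. The list was also set out for (dep)BCP+MSC against BCP+MSC, where 0 of 8 passed the adjusted threshold and 6 were higher and 1 lower at the unadjusted one, with a median of 2.97. Of all genes, 3.14% passed the adjusted and 13.2% the unadjusted threshold there.

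Of 10 endplate genes, which form the nerve-muscle contact, 2 were higher with toxin past the adjusted threshold, where 5.59% of all genes were. The 2 were Chrna1 (log2 fold change 1.66, SE 0.43, edgeR adjusted p = 0.0106) and Chrnd (1.72, SE 0.56, adjusted p = 0.0391), the alpha and delta subunits of the receptor, named after their values were seen. Chrne, the adult epsilon subunit, was at 0.38 (edgeR adjusted p = 0.668). Rapsn, which clusters the receptor, and Chrnb1, the beta subunit, were at 0.94 (adjusted p = 0.0289) and 0.91 (adjusted p = 0.000797), short of the fold threshold. The median of the 10 was 0.64. The mean log2 CPM of 5 Schwann cell markers ranged from 3.46 to 5.00 with toxin and from 3.05 to 4.74 without, and 0 of the 5 passed the adjusted threshold. That of the keratinocyte markers had medians of 0.14 and -2.78, and 1 of the 5 rose, with 3 of the 5 higher for (dep)BCP+MSC against BCP+MSC as given above. The part of nerve or skin in the results was not tested.

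**Figure D5:**
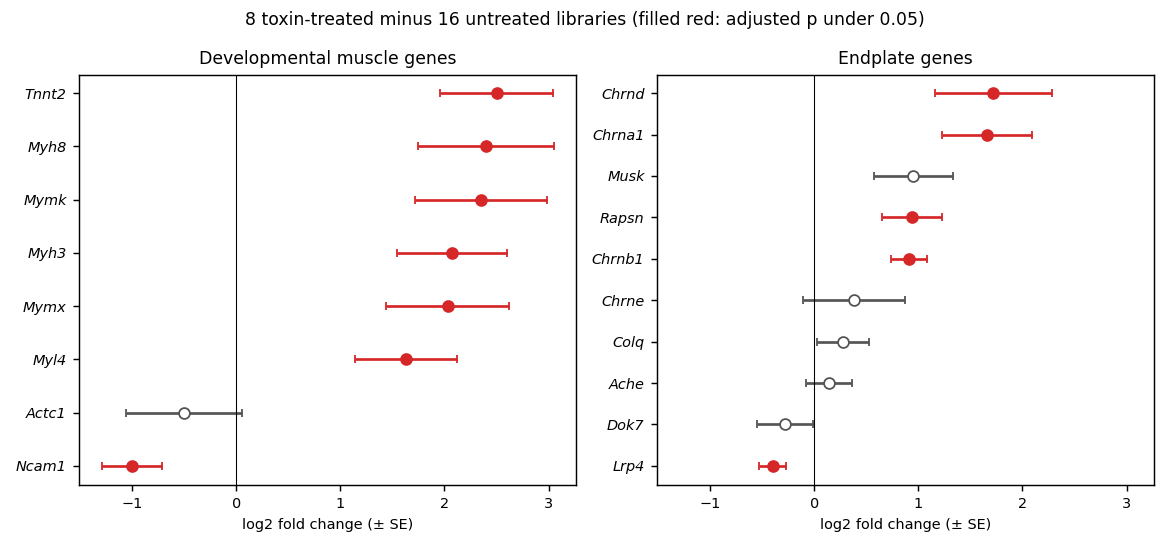
Log2 fold changes with SE of 8 developmental muscle genes and 10 endplate genes in 8 toxin-treated against 16 other libraries, with filled red points for an edgeR adjusted p under 0.05. Of the developmental genes 6 lie between 1.63 and 2.50, and Chrna1 and Chrnd lie at 1.66 and 1.72 where Chrne is at 0.38.

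Mature muscle genes showed no common direction. Of 28 (median 0.44), 3 were higher and 2 lower past the adjusted threshold in the toxin-treated libraries, where 8.98% of all genes passed it. Named after their values were seen, Myh1 (1.55), Tcap (1.85) and Myot (1.73) rose and Casq1 (-2.15) and Myl1 (-1.76) fell on the log2 scale. The most abundant of the list, skeletal actin Acta1, was at -0.49 (edgeR adjusted p = 0.546) and the adult fast myosin Myh4 at 0.55 (adjusted p = 0.460).

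A list of satellite cell genes, from which Pax7 and Cdh15 were left out, did not rise as a whole. Of 12 (median 0.21), 0 were higher and 1 was lower past the adjusted threshold, where 8.98% of all genes passed it. The 1 was Heyl, a Notch target that keeps satellite cells quiescent and is also expressed in vessel walls, at -1.57 (SE 0.29, edgeR adjusted p = 0.000524), named after its value was seen. In the same comparison 4 endothelial markers had a median of -0.69 and 5 smooth muscle markers one of -0.33, with 0 past the adjusted threshold, and their part in the Heyl value was not tested. Notch3, a Notch receptor, was at -0.60 (edgeR adjusted p = 0.0268), short of the fold threshold. Itga7, the laminin receptor of fibres and myoblasts, was at 0.75 (adjusted p = 0.0966), and Vcam1 at 0.36 (adjusted p = 0.0811). Of 14 partners and inhibitors of the myogenic factors, 0 passed in either direction, with a median of -0.02. Among them Id2, an inhibitor, was at 0.59 (edgeR adjusted p = 0.0772) and the E-protein gene Tcf4 at -0.44 (adjusted p = 0.0350).

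Of 12 genes of the myostatin pathway (median 0.20), 1 rose and 1 fell past the adjusted threshold, where 8.98% of all genes passed it. Named after their values were seen, these were Wfikkn1, an extracellular antagonist of myostatin, at 1.27 (SE 0.32, edgeR adjusted p = 0.00741), and Gdf11, the close relative of Mstn, at -1.40 (SE 0.24, adjusted p = 0.000269). Smad3, an intracellular transducer of the pathway, was at -0.86 (adjusted p = 7.82e-05), short of the fold threshold. Receptor gene Acvr1b was at 0.51 (adjusted p = 0.0163).

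Of 14 genes around Igf1 (median -0.08), 3 rose and 3 fell past the adjusted threshold, where 8.98% of all genes passed it. The binding protein genes Igfbp5 (-1.23, SE 0.23, edgeR adjusted p = 0.000689) and Igfbp6 (-1.06, SE 0.21, adjusted p = 0.00114) fell, as did the adaptor Irs1 (-1.28). Igfbp3 (1.47, SE 0.22, adjusted p = 7.53e-05), the fetal growth factor Igf2 (1.11) and Stc2 (1.52), which inhibits cleavage of binding proteins, rose, and these 3 and Irs1 were named after their values were seen.

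The genes most like each of the 9 were found by Pearson's r of log2 CPM over the 24 libraries, among 14769 named genes with a mean of at least 1 CPM. Myf6 was most like 2310002L09Rik (0.98), Tmem38a (0.96) and Camk2b (0.96), and Cdh15 most like Cacng1 (0.95), Art5 (0.94) and Eef1a2 (0.94). Chrng was most like Tnnt2 (0.91), Myh3 (0.90) and Myh8 (0.89), and Myog most like Tnnt2 (0.87), Riiad1 (0.87) and Maf1 (0.85). Myod1 was most like Fitm1 (0.89), Asb10 (0.89) and Ldb3 (0.88), Mstn like Ppp1r3a (0.89), Dtna (0.88) and Mlip (0.88), and Myf5 like Atp6v0e2 (0.93), Smtnl1 (0.91) and Fbp2 (0.91). Pax7 had the lowest of these values, with Fam220a (0.80), Tceal5 (0.78) and Tcea3 (0.78), and Igf1 was most like Msmo1 (0.94), Wdr1 (0.94) and Dennd4b (0.93), none of them on the lists used here.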

How the data were processed

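Whole constructs were sequenced with a stranded mRNA library. Per the labels and the methods of the study, the authors aligned reads with HISAT2 2.0.5 and counted them per gene with featureCounts 1.5.2 on GENCODE M13 (GRCm38), and deposited raw read counts. No strand option is given, so the counts were taken as unstranded. The 30564 genes whose counts summed to 10 or more were fitted with edgeR 4.0.16 (TMM scaling, robust quasi-likelihood test, Benjamini-Hochberg adjustment) in 1 model of 6 groups. The thresholds, an adjusted or unadjusted p under 0.05 with a log2 fold change beyond 1, follow the study. Single values and within-library differences of log2 CPM were tested by exact two-sided permutation. Nothing in the labels says whether samples of a group share more than the group, and 2 of the (dep)BCP+MSC columns carry no sample number. The record of the counting also names libraries called RVE, which have no column and whose constructs are not stated. The columns called R, which match the sample titles, were used for BCP+MSC+RvE1. Named genes were all 9, up to 4 of the most abundant genes of each list with Chrne, Myh3 and Myh8, and the 3 genes most like each of the 9. The 9 genes and the lists were chosen with earlier results of these data known. The comparisons of (dep)BCP+MSC+RvE1inj with BCP+MSC and of 8 with 16 libraries were added after the data were seen. The edgeR script was tested on simulated data. Alternatives were RLE scaling, DESeq2 1.42.0, other filters, fits of only the groups compared, library size or muscle level as covariate, a replicate block, other priors and references, and leaving out libraries. Zero limits (3 counts) cover counting error only, while the SDs and the SEs of the edgeR fit include the variation between libraries.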

Additional observations from a re-analysis of the deposited data

Results flagged for a closer look

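Within groups of 4, 8 of 54 combinations of gene and group held a library far from the other 3 on the log2 scale (by Dixon's test of the gap against the range, which chance passes in about 1 of 20 groups). All 8 were low values of BCP+MSC replicate 2 or BCP+MSC+Treg replicate 4. In BCP+MSC replicate 2, Pax7 was 0.0295 CPM where the other 3 were at 0.482 to 0.708, Myf6 was 0.192 CPM where they were at 6.37 to 11.4, and Cdh15 was 0.118 CPM where they were at 3.18 to 3.38. In BCP+MSC+Treg replicate 4, Pax7 was 0 CPM where the others were at 0.528 to 0.614, Myod1 was 0.836 CPM where they were at 4.63 to 6.19, Myf5 was 0.0836 CPM where they were at 0.449 to 0.561, Myf6 was 2.09 CPM where they were at 13.2 to 16.0, and Cdh15 was 0.167 CPM where they were at 3.03 to 4.29. Their mean log2 CPM of the mature muscle genes was 3.12 and 6.66, the lowest of their groups.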

How the results depend on the processing

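In the shallowest library 3 counts were 0.299 CPM on the scale of the values, above several values of Pax7, Myf5 and Chrng, so differences in these genes were the least detectable. Of 390 counts of genes past a threshold recomputed under an alternative, 356 stayed within 1.5 times, and of 2022 log2 fold changes 1923 kept their direction and side of the threshold. The cause of the changes below was not tested. For most of these alternatives the share of all genes past the threshold was not set beside the count. A higher count under such an alternative therefore need not be particular to these genes.

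In (dep)BCP+MSC against BCP+MSC, the 1 gene of 9 past the adjusted threshold became 2 with edgeR's own expression filter, 4 with DESeq2, 0 in a fit of only these groups and 0 without the 3 libraries that stood apart, an alternative chosen after seeing the data. The 4 past the unadjusted threshold became 7 with DESeq2 and 7 with library size as a covariate. The share of all genes past that threshold under these settings was not set beside them. For (dep)BCP+MSC+RvE1inj against BCP+MSC, DESeq2 put 1 past the adjusted threshold, and library size or muscle level as a covariate put 5 past the unadjusted one. With the muscle covariate, the unadjusted count of 0 became 1 for BCP+MSC against BCP, 2 for BCP+MSC+RvE1 against BCP, 1 for BCP+MSC+Treg against BCP+MSC, 1 for BCP+MSC+Treg against BCP+MSC+RvE1 and 1 between the toxin groups. Against BCP+MSC, DESeq2 gave 1 for RvE1-primed and 2 for Treg-cocultured MSC, and a fit of only the 2 groups gave 1 for BCP+MSC+RvE1 against BCP.

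Same-numbered libraries did not deviate together (median r of 0.03 over 50 pairs, from -0.61 to 0.68, and 6 of 22 libraries correlated best with their own number), so the numbers were not taken as a pairing. The fit with the replicate number as a block also left out the 2 unnumbered libraries, so that 2 choices changed at once. With the block, 2 genes passed the adjusted and 2 the unadjusted threshold for (dep)BCP+MSC against BCP+MSC, 1 the adjusted for (dep)BCP+MSC+RvE1inj against BCP+MSC and 1 the unadjusted between the toxin groups, and Myod1 turned to -0.35 for (dep)BCP+MSC against BCP+MSC. The same 22 libraries without the block, an alternative chosen after seeing the data, gave 2, 3, 0 and 1 for these counts and 0.04 for Myod1. Between the toxin groups, the block turned Myf6 to 0.34, Myog to 0.32, Cdh15 to 0.09 and Chrng to 1.29, where the 22 libraries without it gave 0.52 for Myf6, 0.21 for Cdh15 and 0.00 for Chrng.

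Leaving out 1 library at a time, unadjusted counts ran from 0 to 1 when BCP+MSC or BCP+MSC+RvE1 was set against BCP and when RvE1-primed was set against unprimed MSC, and from 0 to 2 when BCP+MSC+Treg was set against BCP or BCP+MSC. In (dep)BCP+MSC against BCP+MSC the adjusted count ran from 0 to 2 and the unadjusted from 3 to 6, for (dep)BCP+MSC+RvE1inj against BCP+MSC the unadjusted ran from 2 to 4, and for 8 against 16 libraries the adjusted ran from 2 to 3 and the unadjusted from 3 to 5. Printed log2 fold changes that turned sign ran from -3.06 to 0.72 for Mstn in BCP+MSC against BCP, from -0.71 to 0.31 and from -0.61 to 0.02 for Pax7 in BCP+MSC+RvE1 and BCP+MSC+Treg against BCP, from -0.21 to 0.28 for Igf1 in BCP+MSC+RvE1 against BCP+MSC, from -1.08 to 0.70 for Chrng in BCP+MSC+Treg against BCP+MSC+RvE1, and from -0.47 to 0.20 for Pax7 and -0.21 to 0.70 for Myod1 in (dep)BCP+MSC against BCP+MSC. Between the toxin groups they ran from -0.51 to 0.21 for Myf5, -0.53 to 0.02 for Myf6, -0.39 to 0.48 for Myog, -0.75 to 0.20 for Cdh15 and -0.59 to 0.44 for Chrng. There the muscle covariate gave 0.13 for Myf5, 0.24 for Myf6, 0.32 for Myog, 0.25 for Mstn, 0.13 for Cdh15 and 0.09 for Chrng, and leaving out the libraries that stood apart gave 0.50 for Myog and 0.25 for Chrng. For (dep)BCP+MSC against BCP+MSC, Pax7 was 0.11 with library size as a covariate, and Myod1 was -0.44 with the muscle covariate and -0.01 without the 3 libraries that stood apart. With Ttn as the reference, Chrng relative to muscle was -0.38 there, and Myod1 and Myf5 were -0.03 and -0.11 for (dep)BCP+MSC+RvE1inj against BCP+MSC.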
